A study of Homo sapiens with 39 samples.

Results

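Cholesterol and fatty acid synthesis genes were followed as a set of 40 genes through every library of an RNA-seq series from a prostate cancer cell line. The set was listed by name and holds the enzymes of sterol and fatty acid synthesis, the proteins that control sterol regulatory element-binding proteins (SREBPs), and genes of sterol carriage and efflux. Its members were 40 of the 63187 genes in the count table, of which 62666 were paired with a symbol and 521 were not.

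The cells were C4-2B, a castration-resistant line derived from LNCaP, grown in medium with serum and treated with androgen pathway inhibitors (ARPi), PARP inhibitors (PARPi) or both. The series addressed how the cells respond to each drug class alone and in combination, and how the olaparib response changes with dose and time. A panel of 21 libraries, taken after 5 days, held 7 groups: DMSO vehicle, 5 µM abiraterone acetate, 20 µM enzalutamide, 1 µM olaparib, 10 nM talazoparib, abiraterone acetate plus olaparib, and enzalutamide plus talazoparib. A time course of 18 libraries held DMSO, 1 µM olaparib and 5 µM olaparib, each at day 1 and at day 5. Each of the 13 groups had 3 libraries (n = 3), lettered A to C in the panel and numbered 1 to 3 in the time course. One cell line was used throughout, and the labels do not say that the replicates were separate cultures, so each p-value measures only the spread between these libraries, which may be technical.

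Cholesterol and fatty acids are both built from acetyl-CoA, through the mevalonate route to squalene and sterols and through malonyl-CoA to palmitate and longer or desaturated chains. The SREBP transcription factors are released from the endoplasmic reticulum when sterols are low and raise most of these genes, while oxysterols act through the liver X receptors (LXRs) to raise the efflux transporters. Androgens are known to raise lipid synthesis in prostate cells, and many of these genes are established androgen-responsive genes in this tissue.

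The libraries held 26932205 to 49833473 counts, with a median of 37223200, and all 40 genes passed the low-count filter in both experiments. Values below are CPM (counts scaled to library size) with TMM factors, and fold changes are log2 values from edgeR's quasi-likelihood test with Benjamini-Hochberg adjustment over all 18625 genes tested in the panel or 18502 in the time course. A gene is called changed at an adjusted p under 0.05. The luminal prostate markers FOLH1 (592 to 1040 CPM), HOXB13 (156 to 296 CPM), KRT8 (214 to 526 CPM) and KRT18 (172 to 298 CPM) were present in each of the 13 groups. Of 13 markers of other cell types, VWF (7.48 to 22.5 CPM), CD68 (2.47 to 29.6 CPM) and PDGFRB (1.04 to 2.43 CPM) exceeded 1 CPM, and PTPRC reached 1.17 CPM. DCN, LUM, CD3E, KRT5 and TP63 stayed at or near 0, and PECAM1, endothelial like VWF, reached 0.107 CPM at most. The hepatic or adipose markers ALB, ADIPOQ and PLIN1 reached 0.268, 0.0281 and 0.307 CPM at most. At day 5, olaparib raised CD68 at 1 µM (1.42) and 5 µM (2.26), and 5 µM lowered VWF (-0.38) and PDGFRB (-0.72). In the panel, CD68 rose with olaparib (1.32) and talazoparib (1.16) and fell with abiraterone (-0.73) and enzalutamide (-1.14), and it rose on adding olaparib to abiraterone (0.64) and talazoparib to enzalutamide (0.84). PTPRC, at 0 to 0.076 CPM in DMSO (0, 0 and 3 counts), rose with the ARPi and combinations (3.52 to 4.96, SE 0.618 to 0.702). With DMSO near 0, these fold changes are imprecise. VWF rose with abiraterone (0.45), abiraterone plus olaparib (0.46) and at day 1 with 1 and 5 µM olaparib (0.26 and 0.40), fell with enzalutamide (-0.35) and talazoparib (-0.20), and rose on adding talazoparib to enzalutamide (0.36). It was lower with enzalutamide than with abiraterone (-0.81). Against the sum of single-drug effects, VWF was higher with enzalutamide plus talazoparib (0.56) and CD68 lower with abiraterone plus olaparib (-0.68). From 1 to 5 µM at day 5, CD68 rose (0.85), and VWF (-0.25) and PDGFRB (-0.72) fell. Day 5 minus day 1, the 5 µM effects differed for CD68 (2.42), VWF (-0.77) and PDGFRB (-1.08), and the 1 µM effects for CD68 (1.44) and VWF (-0.385). The part of other cells in the results was not tested. As controls, the androgen targets KLK3 and TMPRSS2 fell with abiraterone (-1.58 and -2.45) and with enzalutamide (-2.25 and -2.80), and the p53 target CDKN1A rose with olaparib (2.18) and talazoparib (1.98). CDKN1A also rose with abiraterone (0.816) and enzalutamide (0.182). KLK3 and TMPRSS2 rose with olaparib (0.175 and 0.727) and talazoparib (0.212 and 0.767).

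Promoters of 4 members are printed because these genes either changed most among the SREBP-control, sterol-carrier and sterol-enzyme genes (INSIG1, STARD4 and TM7SF2) or held the only letter match to a sterol regulatory element core found (SREBF2). The sequences are RefSeq's, 250 bases before to 50 bases after a gene's start on GRCh38.p14, written in the gene's direction: INSIG1 at chr7:155297628-155297927 on the plus strand, STARD4 at chr5:111512486-111512785 on the minus strand, SREBF2 at chr22:41832855-41833154 on the plus strand and TM7SF2 at chr11:65111622-65111921 on the plus strand. Capitals mark a CCAAT box, which is bound by NF-Y, a partner of SREBPs, and which on the opposite strand is spelled with the letters ATTGG. They also mark the core of a sterol regulatory element, spelled TCACNCCAC.
INSIG1: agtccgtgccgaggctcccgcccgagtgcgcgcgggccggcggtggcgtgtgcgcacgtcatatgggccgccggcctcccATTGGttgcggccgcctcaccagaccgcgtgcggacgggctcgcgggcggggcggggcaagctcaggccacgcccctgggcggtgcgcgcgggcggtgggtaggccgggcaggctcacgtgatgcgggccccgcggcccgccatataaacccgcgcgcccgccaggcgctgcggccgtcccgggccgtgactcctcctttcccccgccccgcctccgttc
STARD4: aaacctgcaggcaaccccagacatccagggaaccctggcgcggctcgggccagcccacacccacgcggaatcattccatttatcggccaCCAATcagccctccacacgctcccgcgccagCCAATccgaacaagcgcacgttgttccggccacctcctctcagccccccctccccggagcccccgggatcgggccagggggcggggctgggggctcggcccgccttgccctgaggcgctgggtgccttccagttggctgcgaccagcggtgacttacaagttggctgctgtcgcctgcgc
SREBF2: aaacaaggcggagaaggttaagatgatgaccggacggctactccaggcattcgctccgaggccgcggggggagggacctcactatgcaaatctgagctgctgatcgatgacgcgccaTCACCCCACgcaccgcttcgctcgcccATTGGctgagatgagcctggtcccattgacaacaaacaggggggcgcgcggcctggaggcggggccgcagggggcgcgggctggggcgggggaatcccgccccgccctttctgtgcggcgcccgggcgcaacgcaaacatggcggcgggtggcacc
TM7SF2: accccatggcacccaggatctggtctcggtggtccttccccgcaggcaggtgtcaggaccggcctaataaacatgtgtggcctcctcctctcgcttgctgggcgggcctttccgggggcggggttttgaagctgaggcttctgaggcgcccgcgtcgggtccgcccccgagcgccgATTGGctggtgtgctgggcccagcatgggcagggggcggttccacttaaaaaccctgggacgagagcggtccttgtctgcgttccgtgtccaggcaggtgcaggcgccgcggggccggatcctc
RefSeq's table matched 35 of the 40 members, with 49 promoters, and did not hold ABCG1, ACAT2, FASN, FDFT1 and SQLE. On either strand, TCACNCCAC or its reverse GTGGNGTGA was in 1 member promoter (2.04%), that of SREBF2, against 1.13% of all 35116 promoters in the table. A CCAAT box was in 29 of the 49 member promoters (59.2%) against 34.6% of all promoters, and the E-box CACGTG, which reads the same on both strands, was in 7 (14.3%) against 7.26%. In the printed promoters the CCAAT boxes began 170 bases before the start of INSIG1, 161 and 130 before that of STARD4, 106 before that of SREBF2 and 74 before that of TM7SF2, a gene that moved opposite to the others under the ARPi. A match is a description of letters, not a binding site or a cause.

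The first question was what each ARPi did to the set. In DMSO the 40 genes held 1.03% to 1.05% of all counts in a panel library. Abiraterone libraries held 0.65% to 0.66% and enzalutamide libraries 0.594% to 0.614%, while olaparib (1.05% to 1.06%) and talazoparib (0.981% to 1.02%) libraries lay close to the DMSO share. Fewer cells making these RNAs and less of the RNA per cell cannot be told apart in such data. With abiraterone, 8 members rose and 31 fell, where 25.8% and 27.1% of all genes rose and fell, and the median member stood at -0.50 against 0.00 over all genes. With enzalutamide, 7 rose and 31 fell (all genes, 27% and 26.3%), with a median of -0.50 against 0.02. The falls were thus far more frequent among the members than among all genes in both comparisons, which share their DMSO libraries, and the rises were not. Counting changes of at least 1.5-fold, 15 members passed with abiraterone (all genes, 18.1%) and 20 with enzalutamide (all genes, 18.9%).

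**Figure D1:**
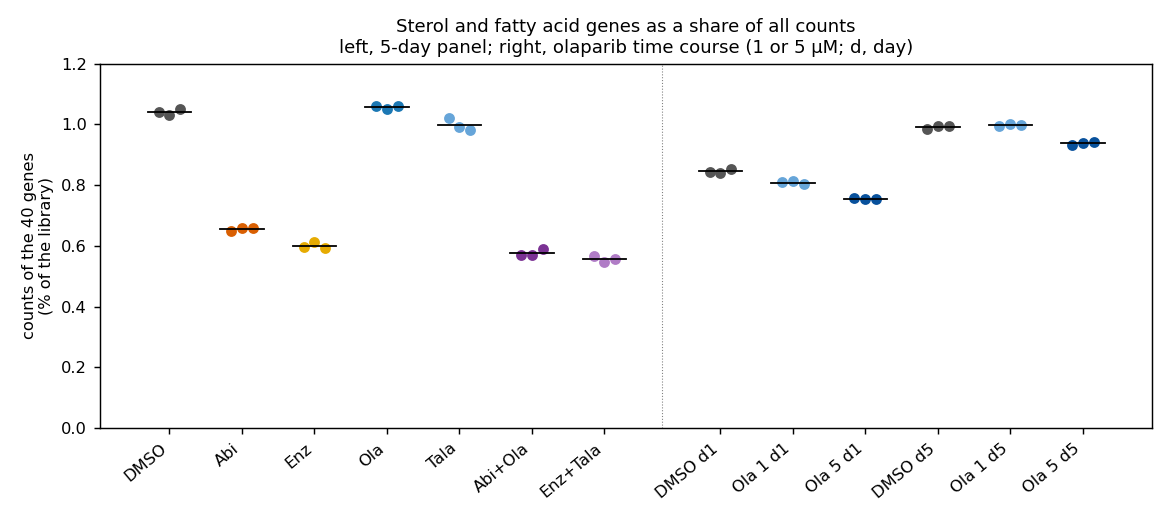
Share of all counts (%, y axis) held by the 40 sterol and fatty acid genes in each library (points) with the mean of 3 (lines), by group (x axis). The ARPi groups and both combinations lie between 0.548% and 0.66%, under every other library of the panel.

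**Figure D2:**
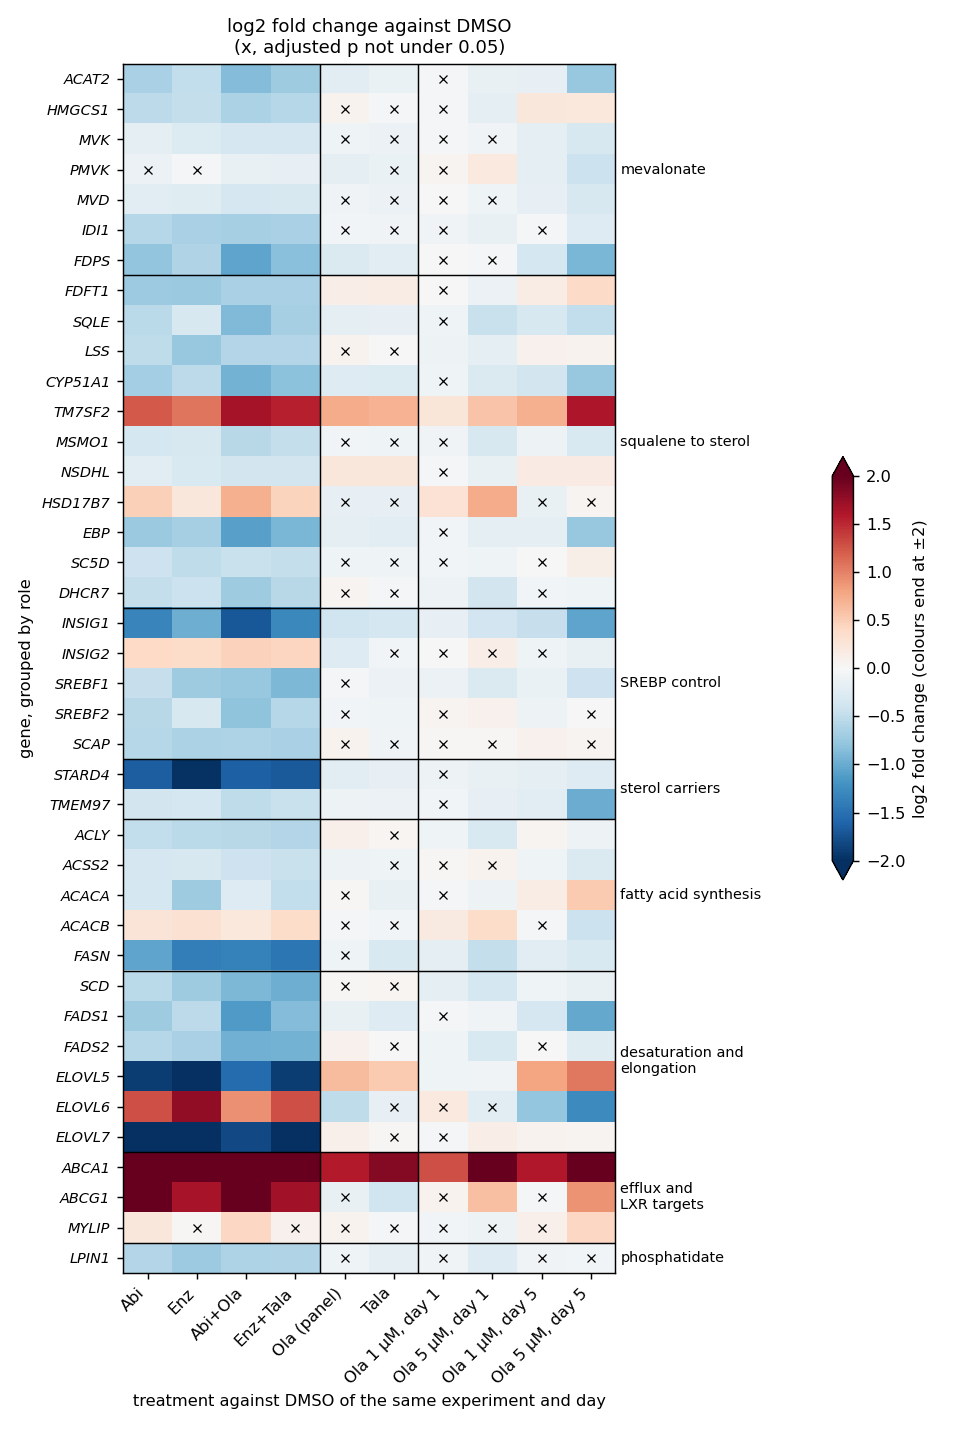
Log2 fold change of each member (rows, by role) against DMSO of the same experiment and day (columns). Blue is lower, red is higher, colours end at 2 in either direction, and a cross marks an adjusted p not under 0.05.

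In the mevalonate branch, 6 of the 7 genes fell with abiraterone and 6 with enzalutamide, and PMVK was not called (-0.12, adjusted p 0.121, and -0.03, adjusted p 0.755). FDPS (ENSG00000160752.15, chr1:155308748-155320666), which makes farnesyl diphosphate, was at 113, 116 and 119 CPM in DMSO, 66.8, 64.4 and 69.7 with abiraterone and 75.8, 79.6 and 73.5 with enzalutamide, changes of -0.80 (SE 0.0348, adjusted p 3.01e-20) and -0.61 (SE 0.0341, adjusted p 3.67e-17). Every DMSO library was above every ARPi library for this gene, and the olaparib (93.8, 93.2 and 97.3 CPM) and talazoparib (101, 99 and 98.1 CPM) libraries lay between them without overlap. ACAT2 (ENSG00000120437.9, chr6:159762045-159779112), the cytosolic thiolase that starts the pathway, read 73.9, 77.4 and 77.8 CPM in DMSO, 50.3, 47.4 and 49.3 with abiraterone and 54.2, 54.8 and 54 with enzalutamide (-0.64, adjusted p 1.49e-16, and -0.49, adjusted p 1.11e-13). HMGCS1 (ENSG00000112972.15, chr5:43287470-43313512), which makes HMG-CoA, read 125, 132 and 138 CPM in DMSO, 90.6, 90.8 and 93 with abiraterone and 95.8, 95.9 and 91.8 with enzalutamide (-0.52, adjusted p 7.55e-15, and -0.48, adjusted p 6.79e-14). Both genes were lower in all 6 ARPi libraries than in any DMSO library. HMGCS1 was not called with olaparib, where its libraries overlapped DMSO at 136, 139 and 140 CPM (0.07, adjusted p 0.105), or with talazoparib, at 130, 126 and 133 CPM (-0.02, adjusted p 0.693).

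Between squalene and cholesterol, 9 of 11 genes fell and 2 rose with each ARPi, and the 2 that rose were TM7SF2 and HSD17B7. EBP (ENSG00000147155.11, chrX:48521799-48528716), the sterol isomerase, was at 68.9, 72.4 and 74.4 CPM in DMSO, 43.2, 42.7 and 43.1 with abiraterone and 45, 46.1 and 45.2 with enzalutamide, changes of -0.74 (SE 0.0378, adjusted p 2.12e-18) and -0.66 (SE 0.0371, adjusted p 3.27e-17). TM7SF2 (ENSG00000149809.17, chr11:65111845-65116384), a sterol reductase of the same pathway, read 51.8, 51.2 and 46.2 CPM in DMSO, 122, 112 and 113 with abiraterone and 104, 106 and 103 with enzalutamide, changes of 1.22 (SE 0.0395, adjusted p 4.41e-24) and 1.07 (SE 0.0394, adjusted p 1.69e-22). The ARPi libraries were all below DMSO for EBP and all above it for TM7SF2, so enzymes of 1 pathway moved in opposite directions. TM7SF2 also rose with olaparib, to 82, 82.5 and 83.8 CPM (0.74, SE 0.0399, adjusted p 1.39e-16), and with talazoparib, to 79.4, 83.2 and 78.7 CPM (0.70, SE 0.0397, adjusted p 1.06e-15), levels between those of DMSO and of the ARPi. HSD17B7, a sterol ketone reductase, read 11.8, 12 and 12.3 CPM in DMSO, 16.2, 16.3 and 17.6 with abiraterone and 14.7, 13.2 and 14.3 with enzalutamide (0.48, adjusted p 7.26e-07, and 0.22, adjusted p 0.00912). The 9 that fell ranged from -0.74 (EBP) to -0.22 (NSDHL) with abiraterone and from -0.76 (LSS) to -0.31 (NSDHL) with enzalutamide.

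Among the 5 genes of SREBP control, 4 fell and INSIG2 rose with each ARPi. INSIG1 (ENSG00000186480.13, chr7:155297776-155310235), which retains SREBPs in the endoplasmic reticulum and is itself raised by them, was at 416, 410 and 412 CPM in DMSO, 161, 166 and 169 with abiraterone, 211, 214 and 202 with enzalutamide, 315, 311 and 309 with olaparib and 328, 319 and 325 with talazoparib. Among DMSO and the single drugs its groups did not overlap, with the abiraterone libraries lowest, then enzalutamide, then the PARPi, then DMSO. INSIG1 changed by -1.32 (SE 0.027, adjusted p 4.66e-30) with abiraterone, -0.98 (SE 0.0266, adjusted p 1.85e-26) with enzalutamide, -0.41 (SE 0.0262, adjusted p 1.36e-14) with olaparib and -0.35 (SE 0.0261, adjusted p 6.14e-13) with talazoparib. Its promoter, printed here, holds a CCAAT box and an E-box that began 55 bases before the start. INSIG2, the paralogue of INSIG1, rose by 0.39 (adjusted p 5.86e-06) and 0.36 (adjusted p 1.61e-05) with the ARPi.

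SREBF1 (ENSG00000072310.18, chr17:17810399-17837002), which encodes SREBP1, read 460, 435 and 447 CPM in DMSO, 325, 324 and 319 with abiraterone and 268, 282 and 266 with enzalutamide, changes of -0.47 (SE 0.029, adjusted p 5.65e-16) and -0.72 (SE 0.0291, adjusted p 3.06e-21). All ARPi libraries were below DMSO, and those with enzalutamide were the lower of the pair. With olaparib SREBF1 read 439, 424 and 442 CPM (-0.04, adjusted p 0.31) and overlapped DMSO, while with talazoparib it fell to 422, 412 and 403 CPM (-0.12, adjusted p 0.00159). SREBF2, the other SREBP gene, fell with both ARPi (-0.55, adjusted p 1.65e-17, and -0.32, adjusted p 2.29e-11), as did SCAP, the sterol-sensing escort of SREBPs (-0.58, adjusted p 4.88e-14, and -0.63, adjusted p 3.87e-15).

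Both sterol carriers fell with each ARPi. STARD4 (ENSG00000164211.13, chr5:111496033-111512590), a soluble cholesterol carrier, was at 37.4, 35.7 and 37.1 CPM in DMSO, 11.5, 12.4 and 11.4 with abiraterone and 9.41, 9.22 and 9.24 with enzalutamide, changes of -1.64 (SE 0.058, adjusted p 5.78e-23) and -1.98 (SE 0.0588, adjusted p 3.06e-25). Its ARPi libraries were far below DMSO and enzalutamide was the lowest, whereas olaparib (31.1, 31.9 and 31.2 CPM) and talazoparib (35.1, 31 and 32 CPM) libraries sat just under the DMSO range. TMEM97 (ENSG00000109084.14, chr17:28319200-28328685), a sterol-binding membrane protein, read 136, 141 and 143 CPM in DMSO, 110, 109 and 109 with abiraterone and 110, 112 and 109 with enzalutamide, smaller changes of -0.36 (adjusted p 3.85e-12) and -0.34 (adjusted p 1e-11).

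Fatty acid synthesis had 4 of 5 genes lower with each ARPi. FASN (ENSG00000169710.9, chr17:82078338-82098294), the synthase that makes palmitate, was at 1535, 1475 and 1645 CPM in DMSO, 732, 770 and 731 with abiraterone and 572, 627 and 590 with enzalutamide, changes of -1.06 (SE 0.0494, adjusted p 1.48e-11) and -1.38 (SE 0.0498, adjusted p 4.65e-13). No ARPi library reached the DMSO range. FASN was not called with olaparib, at 1469, 1415 and 1506 CPM (-0.08, adjusted p 0.206), and fell with talazoparib to 1306, 1261 and 1209 CPM (-0.30, adjusted p 0.000142). ACACA (ENSG00000278540.5, chr17:37084992-37406836), the carboxylase that makes malonyl-CoA for synthesis, read 608, 640 and 679 CPM in DMSO, 490, 532 and 496 with abiraterone and 382, 400 and 399 with enzalutamide, changes of -0.35 (SE 0.0338, adjusted p 2.27e-09) and -0.71 (SE 0.034, adjusted p 1.22e-15). Enzalutamide libraries were below abiraterone libraries and both were below DMSO. ACACB, the carboxylase isoform tied to fatty acid oxidation, rose instead (0.25, adjusted p 0.0024, and 0.30, adjusted p 0.000331).

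**Figure D3:**
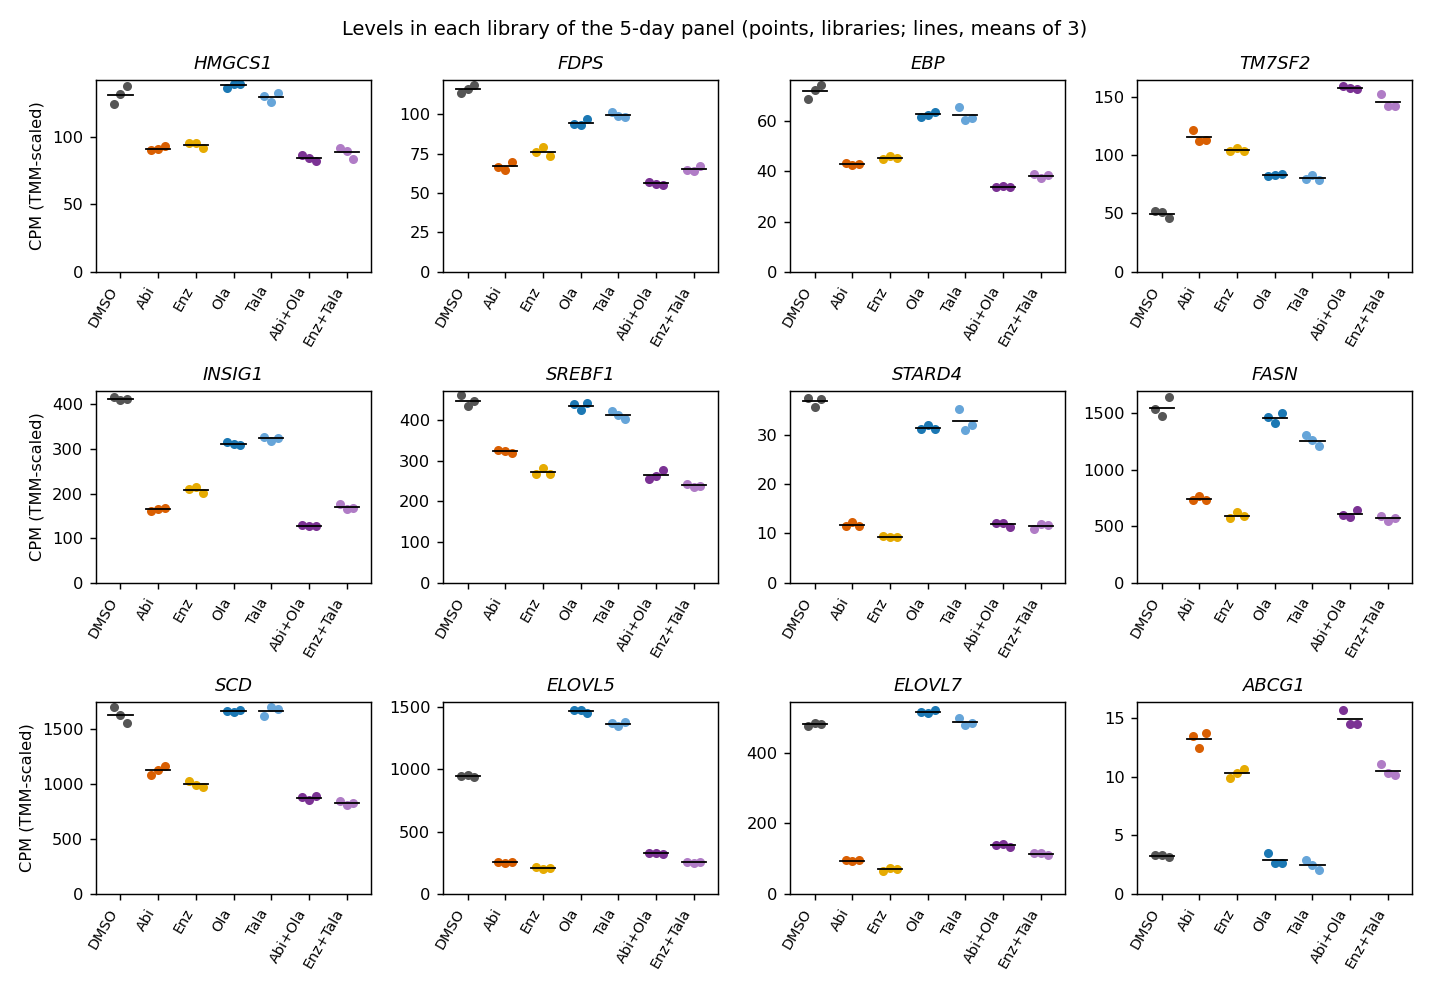
TMM-scaled CPM (y axes, from 0) of 12 members in the 7 panel groups (x axes), with points for libraries and lines for means of 3. ELOVL7, ELOVL5 and STARD4 are lowest with the ARPi and the combinations, TM7SF2 is lowest in DMSO, and ELOVL5 is highest with the PARPi.

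Desaturation and elongation genes held the largest falls of the set. ELOVL7 (ENSG00000164181.14, chr5:60751791-60844274), an elongase of saturated very-long chains, was at 476, 484 and 482 CPM in DMSO, 95.4, 93.1 and 95.5 with abiraterone and 66.4, 74.4 and 71.4 with enzalutamide, changes of -2.34 (SE 0.0315, adjusted p 2.4e-35) and -2.76 (SE 0.0321, adjusted p 1.41e-37). ELOVL5 (ENSG00000012660.14, chr6:53267398-53349179), an elongase of polyunsaturated chains, read 943, 953 and 936 CPM in DMSO, 254, 251 and 256 with abiraterone and 220, 203 and 208 with enzalutamide, changes of -1.90 (SE 0.024, adjusted p 3.81e-36) and -2.17 (SE 0.0242, adjusted p 5.75e-38). For both elongases the enzalutamide libraries were lowest, the abiraterone libraries next and DMSO highest, with no overlap. ELOVL5 rose with olaparib to 1471, 1474 and 1448 CPM (0.63, SE 0.0228, adjusted p 6.2e-21) and with talazoparib to 1368, 1346 and 1374 CPM (0.53, SE 0.0228, adjusted p 9.24e-19). Every PARPi library exceeded every DMSO library, so the gene went in opposite directions under the drug classes.

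SCD (ENSG00000099194.6, chr10:100347233-100364826), the desaturase that makes oleate, read 1701, 1634 and 1563 CPM in DMSO, 1085, 1132 and 1167 with abiraterone and 1030, 997 and 973 with enzalutamide (-0.53, adjusted p 1.83e-15, and -0.71, adjusted p 2.35e-18), and was not called with olaparib (0.03, adjusted p 0.44) or talazoparib (0.04, adjusted p 0.395). ELOVL6, the elongase of palmitate, moved the other way from its relatives, from 7.17, 5.76 and 5.45 CPM in DMSO to 13.3, 15.5 and 15.9 with abiraterone and 21, 19.6 and 22.1 with enzalutamide, rises of 1.29 (SE 0.094, adjusted p 4.51e-14) and 1.78 (SE 0.0912, adjusted p 2.77e-18). All its ARPi libraries exceeded DMSO, and its olaparib libraries, at 4.21, 4.72 and 3.87 CPM, were below DMSO (-0.51, adjusted p 0.00024). Read per kilobase of exon, DMSO levels were highest for SCD (311 CPM per kb), ELOVL5 (248) and FASN (166) and lowest for ELOVL6 (0.842), ABCG1 (0.534) and ABCA1 (0.0278), so the elongase that rose was among the least abundant members.

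The efflux transporters rose. ABCG1 (ENSG00000160179.19, chr21:42199689-42297244) was at 3.29, 3.35 and 3.17 CPM in DMSO, 13.5, 12.4 and 13.7 with abiraterone and 9.87, 10.3 and 10.7 with enzalutamide, changes of 2.01 (SE 0.104, adjusted p 3.5e-18) and 1.65 (SE 0.105, adjusted p 1.06e-15). ABCA1 (ENSG00000165029.17, chr9:104781006-104928155) was near the detection limit in DMSO, at 0.238, 0.582 and 0.127 CPM (a mean of 10.7 counts), and read 2.85, 3.18 and 3.02 with abiraterone, 2.27, 1.77 and 2.01 with enzalutamide, 0.948, 0.762 and 1.12 with olaparib and 1.09, 1.02 and 1.25 with talazoparib. All treated libraries exceeded DMSO and the ARPi libraries were the higher, although the low DMSO counts make the fold changes imprecise: 3.26 (SE 0.266, adjusted p 8.88e-13) with abiraterone, 2.67 (SE 0.272, adjusted p 1.85e-10) with enzalutamide, 1.59 (SE 0.293, adjusted p 4.38e-05) with olaparib and 1.84 (SE 0.284, adjusted p 3.21e-06) with talazoparib. ABCG1 did not follow it under PARPi, with 3.48, 2.65 and 2.64 CPM under olaparib (-0.16, adjusted p 0.344) and 2.93, 2.51 and 2.06 under talazoparib (-0.40, adjusted p 0.00937), a call that ended without talazoparib library C (-0.28). MYLIP, an LXR-induced ligase that marks lipoprotein receptors for degradation, rose with abiraterone (0.22, adjusted p 0.00525) and was not called with enzalutamide (0.03, adjusted p 0.74). LPIN1 (ENSG00000134324.12, chr2:11677595-11827409), a phosphatidate phosphatase, read 77.5, 83 and 92.6 CPM in DMSO, 52.6, 58.3 and 58.9 with abiraterone and 46.3, 54.2 and 51.5 with enzalutamide, changes of -0.58 (adjusted p 6.05e-08) and -0.73 (adjusted p 1.45e-09).

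Compared directly, enzalutamide and abiraterone differed for 22 members, 8 higher and 14 lower with enzalutamide (all genes, 9.78% and 10.1%). The largest positive differences were those of ELOVL6 (0.49, adjusted p 3.38e-05), INSIG1 (0.34, adjusted p 8.16e-12) and SREBF2 (0.23, adjusted p 3.74e-07). The largest negative ones were those of ABCA1 (-0.59, adjusted p 0.0424), ELOVL7 (-0.42, adjusted p 5.43e-12) and ACACA (-0.36, adjusted p 1.09e-08). Without any one of the 6 libraries compared, ABCA1 was no longer called (adjusted p 0.0519 to 0.164). Roles were mixed: from squalene to sterol, SQLE and CYP51A1 were higher with enzalutamide (0.22 and 0.16) and LSS, TM7SF2 and HSD17B7 lower (-0.25, -0.15 and -0.25), with TM7SF2 not called without abiraterone library A nor HSD17B7 without abiraterone library C or enzalutamide library B. FASN, STARD4 and SREBF1 were lower with enzalutamide (-0.32, -0.34 and -0.25).

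PARPi alone changed fewer members. With olaparib 8 rose and 13 fell (all genes, 19.6% and 16%), and with talazoparib 5 rose and 15 fell (all genes, 18.4% and 15.4%), both against the same DMSO libraries. The member medians were -0.06 and -0.09, against 0.02 and 0.02 over all genes. At 1.5-fold or more, 3 members passed with olaparib (all genes, 6.21%), namely ABCA1, TM7SF2 and ELOVL5, and 2 with talazoparib (all genes, 5.69%), ABCA1 and TM7SF2. The rises were at or under the background share, and the falls were more frequent than theirs. The strongest falls were those of ELOVL6 (-0.51), INSIG1 (-0.41) and FDPS (-0.29) with olaparib, and of ABCG1 (-0.40, not called without talazoparib library C), INSIG1 (-0.35) and FASN (-0.30) with talazoparib. Total-count scaling turned the olaparib split of 8 higher and 13 lower into 6 higher and 17 lower, and the talazoparib split of 5 higher and 15 lower into 5 higher and 22 lower.

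Talazoparib at 10 nM against olaparib at 1 µM, doses not matched in potency by any value here, differed for 7 members, 1 higher and 6 lower (all genes, 3.11% and 5.25%). ELOVL6 was higher with talazoparib (0.35, adjusted p 0.0333), and FASN (-0.22, adjusted p 0.0119), ACACA (-0.18, adjusted p 0.00156) and SCAP (-0.14, adjusted p 0.0287) had the largest negative differences among called members. The count was 13 by DESeq2, 2 without olaparib library C, talazoparib library B or talazoparib library C, and 3 without olaparib library A, and each of these 4 omissions ended the ELOVL6 and SCAP calls. ELOVL6 was also not called without talazoparib library A nor SCAP without olaparib library B, and FASN was not called without olaparib C, talazoparib B or talazoparib C. For INSIG1 the difference of 0.05 (SE 0.0262, adjusted p 0.229) and for TM7SF2 that of -0.04 (SE 0.0379, adjusted p 0.597) did not pass, which does not show that the drugs act alike.

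In the combinations the direction in each role was that seen with the ARPi. Abiraterone plus olaparib raised 8 members and lowered 32 (all genes, 31.1% and 31.1%), with a median of -0.62 and 27 members at 1.5-fold or more (all genes, 26.4%). Enzalutamide plus talazoparib raised 7 and lowered 32 (all genes, 31.2% and 31.3%), with a median of -0.58 and 23 members at 1.5-fold or more (all genes, 25.1%). INSIG1 was at 130, 127 and 127 CPM with abiraterone plus olaparib and 176, 165 and 168 with enzalutamide plus talazoparib (-1.69, SE 0.0276, adjusted p 3.93e-33, and -1.28, SE 0.0268, adjusted p 6.31e-30). In each case the combination libraries were below those of the ARPi alone. FDPS behaved likewise, at 56.9, 56 and 55.4 and 64.7, 64.2 and 66.9 CPM (-1.05, adjusted p 8.86e-24, and -0.83, adjusted p 3.11e-21), and so did EBP, at 33.8, 34.1 and 33.9 and 39, 37.4 and 38.5 CPM (-1.09, adjusted p 5.19e-23, and -0.91, adjusted p 2.94e-21). TM7SF2 reached its highest panel levels, 159, 157 and 157 and 152, 142 and 142 CPM (1.67, adjusted p 2.19e-28, and 1.55, adjusted p 1.39e-27), above the ranges of all single drugs.

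Adding the PARPi to the ARPi was tested directly. Against abiraterone alone, abiraterone plus olaparib had 7 members higher and 19 lower (all genes, 14.4% and 14.7%; 4 and 20 with total-count scaling, and 4 higher without combination library B or C). Against enzalutamide alone, enzalutamide plus talazoparib had 9 higher and 17 lower (all genes, 16.5% and 17.9%). The largest falls on adding olaparib were those of FADS1 and FADS2, the polyunsaturate desaturases (-0.42, adjusted p 1.88e-11, and -0.40, adjusted p 3.64e-15), and of ELOVL6 (-0.38, adjusted p 0.000905). On adding talazoparib they were those of ELOVL6 (-0.48, adjusted p 1.3e-05), SQLE (-0.35, adjusted p 1.41e-08) and FADS1 (-0.35, adjusted p 5.96e-10). Among called members, ELOVL7, TM7SF2 and ELOVL5 rose most on adding olaparib (0.54, 0.45 and 0.36), and ABCA1, ELOVL7 and TM7SF2 on adding talazoparib (0.77, 0.68 and 0.48). The PARPi therefore lowered further several sterol and desaturase genes that the ARPi had lowered, and partly offset the loss of ELOVL7: its combination libraries, 139, 142 and 132 CPM and 115, 116 and 111 CPM, were above those of the ARPi alone and below DMSO.

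Departure from the sum of the single-drug effects was tested as an interaction. For abiraterone with olaparib 3 members departed upward and 12 downward (all genes, 4.74% and 8.08%). For enzalutamide with talazoparib 7 departed upward and 8 downward (all genes, 5.32% and 7.28%; 8 and 6 with total-count scaling). The downward count was 4 without talazoparib library B or combination library B or C and 5 without talazoparib library C. FADS2 and SCD departed downward in both pairs (-0.49, adjusted p 1.59e-12, and -0.39, adjusted p 1.28e-07, then -0.30, adjusted p 1.48e-07, and -0.31, adjusted p 5.91e-06). SCD shows the pattern in its values, as it was called with neither PARPi alone yet read 887, 856 and 895 CPM with abiraterone plus olaparib and 847, 809 and 830 with enzalutamide plus talazoparib, under each ARPi alone. ELOVL7 and HSD17B7 departed upward (0.44, adjusted p 5.52e-09, and 0.41, adjusted p 0.00505, then 0.66, adjusted p 4.54e-13, and 0.38, adjusted p 0.00864), and STARD4 did so with enzalutamide plus talazoparib (0.48, adjusted p 9.25e-05). ABCA1 rose less than the sum (-1.17, adjusted p 0.0262, and -1.07, adjusted p 0.0417), with values of -0.74 and -0.65 without DMSO library C. The first call ended without DMSO A or C, abiraterone B, olaparib A or C, or combination C, and the other without DMSO A or C, enzalutamide A or C, or any 1 library of talazoparib or the combination. INSIG1 and FDPS did not pass, at 0.04 (SE 0.0382, adjusted p 0.59) and 0.04 (SE 0.0498, adjusted p 0.7) with abiraterone and olaparib.

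**Figure D4:**
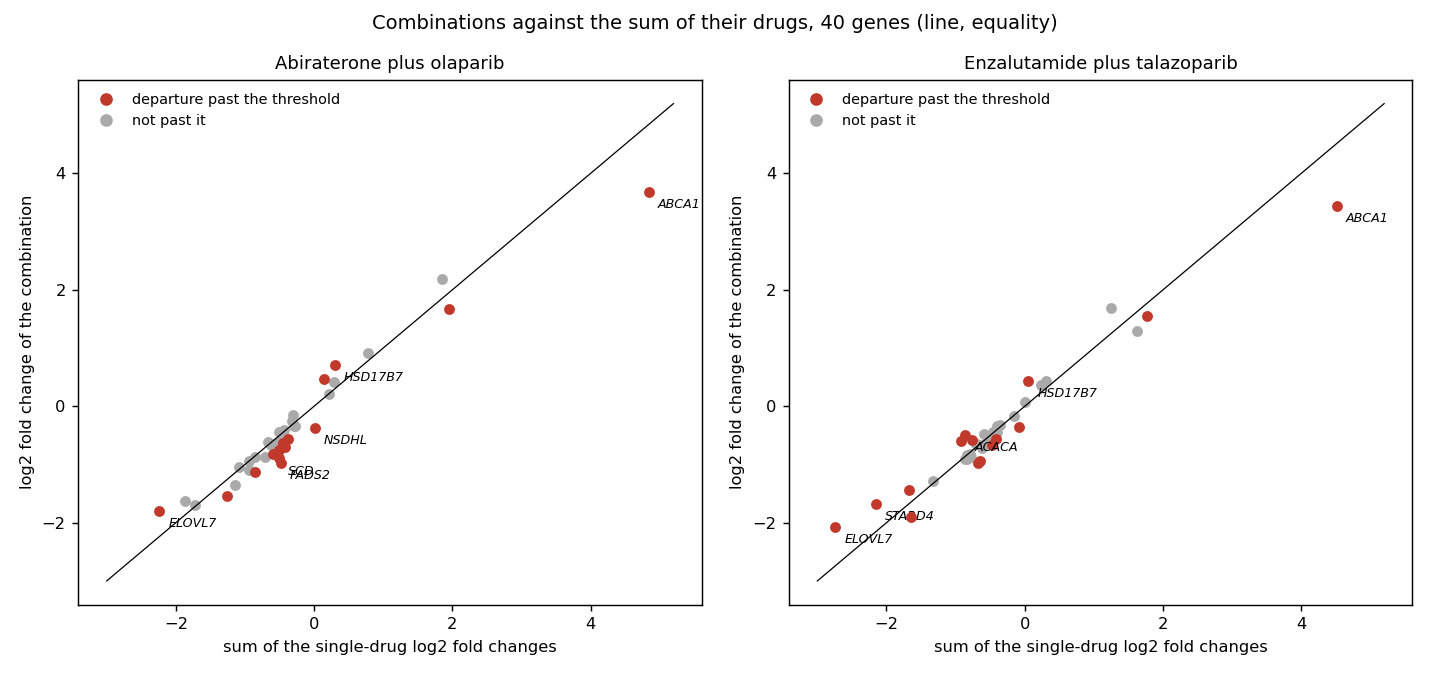
Log2 fold change of each combination (y axis) against the sum of its single drugs (x axis) for the 40 genes, with the line of equality and red points for departures past the threshold. ABCA1 lies below the line and ELOVL7 above it in both panels.

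The time course asked how olaparib acts by dose and day. At day 1, 1 µM raised 4 members and lowered 9 (all genes, 6.3% and 9.52%), and 5 µM raised 8 and lowered 24 (all genes, 21.6% and 23.4%; 11 and 20 with total-count scaling). At day 5, 1 µM raised 11 and lowered 19 (all genes, 23.4% and 22.9%; 7 and 21 with total-count scaling), and 5 µM raised 12 and lowered 24 (all genes, 34.4% and 33.9%). Doses on the same day share DMSO libraries. Changes of at least 1.5-fold numbered 1 and 3 at day 1 (all genes, 1.24% and 7.7%) and 4 and 12 at day 5 (all genes, 9.5% and 30.3%), close to the background at 5 µM on day 1 and at both doses on day 5. The member medians of -0.04 and -0.13 at day 1 and -0.08 and -0.20 at day 5 lay below those of all genes (0.00, 0.02, 0.00 and -0.01).

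The early response at 5 µM was a broad, shallow fall of lipid synthesis genes. FASN read 1204, 1206 and 1246 CPM in DMSO at day 1 and 895, 843 and 895 with 5 µM (-0.47, SE 0.0286, adjusted p 1.04e-09), SQLE, the epoxidase of squalene, changed by -0.44 (SE 0.0349, adjusted p 3.36e-13) and INSIG1 by -0.38 (SE 0.023, adjusted p 2.74e-16). SCD read 1023, 966 and 1009 CPM in DMSO and 781, 791 and 777 with 5 µM (-0.35, SE 0.0175, adjusted p 6.11e-19). The treated libraries of FASN and SCD were all below DMSO. Already at 1 µM, SCD (-0.19, adjusted p 3.35e-10), FASN (-0.18, adjusted p 0.00046) and INSIG1 (-0.17, adjusted p 1.29e-06) had fallen the most. The largest rises at 5 µM were those of ABCA1, from 0.369, 0.354 and 0.442 to 2.97, 3.51 and 2.97 CPM (3.01, SE 0.202, adjusted p 4.09e-15), HSD17B7, from 11, 12.7 and 12.3 to 20.2, 20.3 and 19.9 CPM (0.74, SE 0.0647, adjusted p 4.87e-12), and ABCG1, from 2.05, 1.49 and 1.92 to 3.12, 2.94 and 2.16 CPM (0.60, SE 0.146, adjusted p 0.000843). For these 3 genes each treated library exceeded each DMSO library.

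The falls at day 5 were led by ELOVL6, INSIG1 and FADS1 at 5 µM, while the median absolute change of the members (0.319) was under that of all genes (0.387). INSIG1 was at 433, 440 and 426 CPM in DMSO, 314, 323 and 306 at 1 µM and 206, 210 and 209 at 5 µM (-0.46, SE 0.0228, adjusted p 5.08e-19, and -1.05, SE 0.0232, adjusted p 5.99e-31). FDPS read 119, 119 and 119 CPM in DMSO, 95.1, 92.9 and 91.8 at 1 µM and 62.9, 64.1 and 61.6 at 5 µM (-0.35, SE 0.0284, adjusted p 5.16e-13, and -0.92, SE 0.0294, adjusted p 8.72e-26). Both fell in order of dose with no overlap between groups. TMEM97 dropped from 164, 163 and 163 CPM to 140, 138 and 143 at 1 µM and 81.6, 80.5 and 82.8 at 5 µM (-0.22, SE 0.0259, adjusted p 5.77e-09, and -1.0, SE 0.0269, adjusted p 3.46e-28). FADS1, which makes arachidonate, went from 341, 340 and 345 CPM to 278, 269 and 266 and 166, 170 and 171 (-0.34, SE 0.0209, adjusted p 4.36e-16, and -1.02, SE 0.0214, adjusted p 1.39e-31). For TMEM97 and FADS1 too, the 3 groups were fully apart and ordered by dose. ELOVL6 read 4.19, 5.06 and 5.35 CPM in DMSO, 3.06, 2.85 and 2.57 at 1 µM and 1.88, 2.13 and 2.03 at 5 µM (-0.78, SE 0.114, adjusted p 3.97e-07, and -1.27, SE 0.119, adjusted p 7.4e-12), the opposite of its rise with ARPi. EBP and ACAT2 reached 47.1, 48.8 and 49.7 and 47.2, 46.8 and 46.4 CPM at 5 µM (-0.76, adjusted p 2e-21, and -0.75, adjusted p 1.39e-21).

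Other members rose at day 5. TM7SF2 climbed from 37.8, 38 and 38.8 CPM in DMSO to 62, 62 and 62.8 at 1 µM and 117, 117 and 117 at 5 µM (0.71, SE 0.0286, adjusted p 1.79e-21, and 1.61, SE 0.0271, adjusted p 1.09e-34). ELOVL5 went from 971, 969 and 980 CPM to 1692, 1661 and 1680 and 2009, 2017 and 2018 (0.79, SE 0.0191, adjusted p 4.03e-25, and 1.05, SE 0.0192, adjusted p 6.6e-30). Each was ordered by dose without overlap. ABCA1 read 0.287, 0.325 and 0.283 CPM in DMSO and 1.65, 1.32 and 1.83 at 5 µM (2.42, SE 0.22, adjusted p 3.09e-12). HMGCS1, the HMG-CoA synthase, was higher at both doses, at 170, 164 and 164 and 161, 164 and 167 CPM against 142, 144 and 141 in DMSO (0.22, adjusted p 5.71e-08, and 0.21, adjusted p 1.14e-07), while the enzymes that follow it in the mevalonate branch fell at 5 µM. ACACA rose at 5 µM to 737, 745 and 711 CPM from 513, 502 and 509 (0.53, SE 0.0226, adjusted p 1.19e-19), whereas FASN fell to 1137, 1193 and 1182 CPM from 1422, 1463 and 1445 (-0.30, SE 0.0285, adjusted p 9.02e-08). Small rises of LSS (0.07) and ELOVL7 (0.05) at 5 µM turned into -0.01 and -0.03 with total-count scaling, and both calls ended without DMSO library 1 or 3 or 5 µM library 2 or 3. SREBF1 read 413, 432 and 426 CPM in DMSO and 312, 322 and 321 at 5 µM (-0.41, adjusted p 1.8e-18), STARD4 fell by a modest -0.26 (adjusted p 1.88e-07) and LPIN1 was not called (-0.06, adjusted p 0.126).

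**Figure D5:**
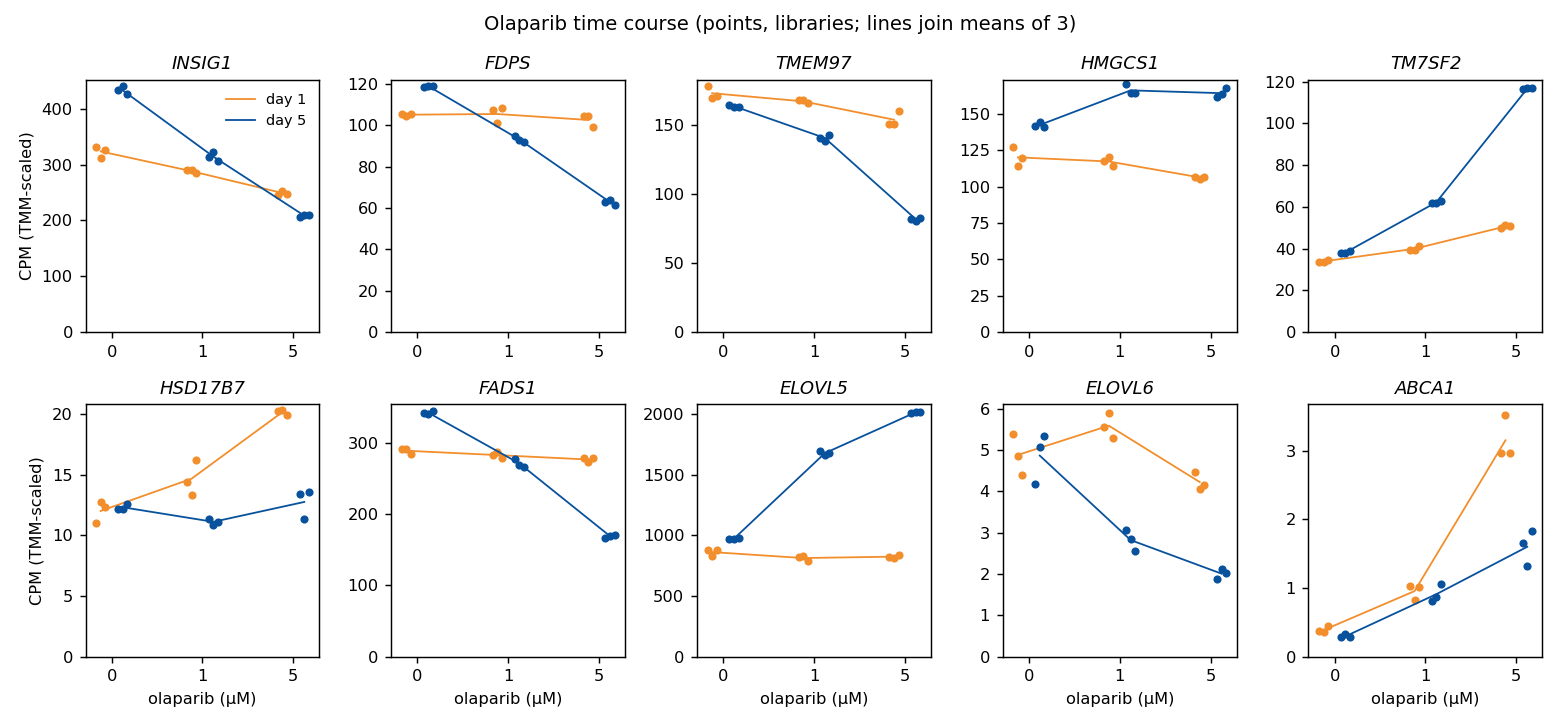
TMM-scaled CPM (y axes, from 0) of 10 members by olaparib dose (x axes, in µM, evenly spaced) at day 1 (orange) and day 5 (blue), with points for libraries and lines joining means of 3. ELOVL5, TM7SF2, FDPS, TMEM97 and FADS1 depend on dose far more at day 5 than at day 1, and HSD17B7 rises at day 1 alone.

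Going from 1 to 5 µM at day 5 raised 10 members and lowered 21 (all genes, 26.6% and 27%; 7 and 27 with total-count scaling), most of all ABCG1 (0.93, adjusted p 1.78e-07), TM7SF2 (0.91, adjusted p 6.22e-27) and ABCA1 (0.81, adjusted p 0.000389) upward and TMEM97 (-0.78, adjusted p 3.47e-24), FADS1 (-0.68, adjusted p 1.62e-25) and INSIG1 (-0.59, adjusted p 1.85e-22) downward. HMGCS1 was not called between the doses (-0.02, SE 0.0294, adjusted p 0.659). Whether the drug's effect differed between days was tested as an interaction. At 1 µM, 11 members had a more positive effect at day 5 and 14 a more negative one (all genes, 15.6% and 14.2%; 8 and 17 with total-count scaling), and at 5 µM 15 and 19 (all genes, 27.2% and 27.7%; 11 and 24 with total-count scaling). Differences of at least 1.5-fold numbered 2 and 12 (all genes, 5.64% and 22.7%). Total-count scaling shifted all genes by -0.131 in the 5 µM difference, and under it the FADS2 difference of 0.07, which was not called without 5 µM day-1 library 3, became -0.06. At 5 µM, 16 members were lower on both days, 7 were lower at day 1 and higher at day 5 (ACACA, ELOVL5, FDFT1, HMGCS1, LSS, NSDHL and SC5D), PMVK and ACACB were higher at day 1 and lower at day 5, and ABCA1, ABCG1, ELOVL7 and TM7SF2 were higher on both. With total-count scaling LSS and ELOVL7 had values under 0 at day 5 that were not called, NSDHL and SC5D were called on neither day, and ELOVL5 and FADS1 were not called at day 1, so of the 7 ACACA, FDFT1 and HMGCS1 kept the change of sign. The day-1 call also ended for SC5D without DMSO library 1 or 3 or 5 µM library 2, and for NSDHL without DMSO library 2. Over all 18502 genes the 4 patterns held for 15.7%, 4.12%, 3.41% and 13.6%, in the same order. The days have separate DMSO libraries.

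ELOVL5 had the largest difference between days, with 883, 829 and 876 CPM in DMSO and 821, 818 and 837 at 5 µM on day 1 (-0.06, adjusted p 0.00657), a small fall that ended under total-count scaling (adjusted p 0.487) and without DMSO library 1 (0.0677) or 3 (0.0521), before the rise at day 5. Its interaction was 1.11 (SE 0.027, adjusted p 5.7e-26). TM7SF2 differed between days by 1.04 (SE 0.0406, adjusted p 1.74e-22) and FADS1 by -0.95 (SE 0.0299, adjusted p 1.56e-25). HSD17B7 went the other way, raised at day 1 and at 13.4, 11.3 and 13.6 CPM against 12.2, 12.2 and 12.6 in DMSO at day 5, not called (0.05, adjusted p 0.53), an interaction of -0.69 (SE 0.0943, adjusted p 7.74e-08). In DMSO itself the set drifted upward from day 1 to day 5, with 27 members higher and 3 lower (all genes, 11.1% and 13.4%) and a median of 0.18 against 0.00 over all genes. ABCG1, INSIG1 and STARD4 had risen the most (0.71, adjusted p 0.00028, 0.42, adjusted p 2.12e-16, and 0.40, adjusted p 2.38e-10), so each day's drug effect is read against its own DMSO.

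Olaparib at 1 µM for 5 days was run in both experiments with separate DMSO libraries. It was called for 21 members in the panel and 30 in the time course, and 19 were called in both, all in the same direction, which is 90.5% of the panel calls and 63.3% of the time-course calls. Over the 17960 genes tested in both experiments the shares were 81.9% and 63.6%. Of those 19, 7 were higher and 12 lower. For named members the values stood side by side as 1.59 and 1.60 for ABCA1, 0.74 and 0.71 for TM7SF2, 0.63 and 0.79 for ELOVL5, -0.41 and -0.46 for INSIG1, and -0.51 and -0.78 for ELOVL6. HMGCS1 was called in the time course alone (0.07 and 0.22), and the difference between experiments was not tested.

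Of other genes of the pathways 48 were listed and 47 tested. Of the 47, 18 rose and 20 fell with abiraterone (all genes, 25.8% and 27.1%), 15 and 21 with enzalutamide (27% and 26.3%), 16 and 11 with olaparib (19.6% and 16%), 16 and 7 with talazoparib (18.4% and 15.4%), 19 and 19 with abiraterone plus olaparib (31.1% and 31.1%), and 16 and 19 with enzalutamide plus talazoparib (31.2% and 31.3%). In the time course the counts on day 1 were 4 and 3 at 1 µM (all genes, 6.3% and 9.52%) and 12 and 21 at 5 µM (21.6% and 23.4%). On day 5 they were 17 and 11 at 1 µM (all genes, 23.4% and 22.9%) and 23 and 15 at 5 µM (34.4% and 33.9%). ELOVL2, a further elongase of polyunsaturated chains, fell from 22.9, 26.1 and 23.3 CPM in DMSO to 3.57, 3.27 and 2.40 with abiraterone and 1.33, 1.27 and 1.39 with enzalutamide (-2.96, SE 0.0951, adjusted p 3.41e-24, and -4.18, SE 0.107, adjusted p 3.74e-27). SCD5, the paralogue of SCD, rose from 1.39, 1.51 and 0.886 CPM to 6.01, 6.04 and 6.16 and 7.40, 6.42 and 8.52 (2.28, SE 0.161, adjusted p 1.9e-14, and 2.57, SE 0.158, adjusted p 4.09e-16) while SCD fell. SOAT1, which esterifies cholesterol for storage, went from 37.2, 38.4 and 38.7 CPM to 18.6, 17.3 and 17.9 and 21.4, 20.7 and 20.8 (-1.09, SE 0.0516, adjusted p 2.98e-19, and -0.86, SE 0.0499, adjusted p 7.75e-17). NPC1, which exports cholesterol from lysosomes, rose at day 5 from 94.7, 96.4 and 96 CPM in DMSO to 152, 149 and 149 at 1 µM and 248, 261 and 255 at 5 µM (0.65, SE 0.0263, adjusted p 1.83e-21, and 1.41, SE 0.0261, adjusted p 2.44e-33). All groups named for these 4 genes were apart from their DMSO libraries. NR1H2, which encodes an LXR, rose at 5 µM (0.92, SE 0.05, adjusted p 1.62e-18), and ICMT, which methylates prenylated proteins, fell (-0.89, SE 0.0243, adjusted p 6.07e-28).

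Several levels carry a limit of annotation. The library kit keeps strand, but the sources used here do not say whether counting used it, so reads in exons shared with a gene on the opposite strand may be split uncertainly for ACAT2 (454 bases with TCP1), SREBF1 (556 with RAI1), TMEM97 (361 with IFT20) and the pair FADS1 and FADS2 (490). CYP51A1 shares 2844 and 2827 of its exon bases with a pair of same-strand genes, so by shared exons alone its level is the least certain. EBP shares 644 with another same-strand gene. MVK shares 225 with MMAB on the opposite strand, and pseudogenes are named after FDPS (8), CYP51A1 (3), IDI1 (3), HSD17B7 (2), TMEM97 (2) and SCD (1).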

How the data were processed

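The count table held gene counts that the authors estimated with Salmon on GENCODE annotation after trimming with Trim Galore and alignment with STAR to GRCh38, deposited as whole numbers. All 39 columns were matched to samples and 0 were left unmapped. Ensembl IDs were paired with symbols by a GENCODE annotation read here. CPM, log2 fold changes and tests were computed here from the deposited counts. Each experiment was fitted once with edgeR 4.0.16 and limma 3.58.1 in R 4.3.3 (filterByExpr by group, TMM scaling, robust quasi-likelihood F test), 18625 genes in the panel and 18502 in the time course, with Benjamini-Hochberg adjustment over all of them. A gene was called at an adjusted p under 0.05, and a further count asked for at least 1.5-fold. The alternatives were DESeq2 1.42.0 (Wald test, local fit), RLE and total-count scaling, no filter and a stricter filter, the groups compared alone, a replicate block as a factor, and each library left out in turn.

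Members and lists were chosen with earlier results of these data known. Genes named in full were the 2 largest absolute log2 fold changes of each role whose higher group averaged 100 counts or more, plus INSIG1, HMGCS1, SREBF1, FASN, SCD and ABCA1, and otherwise the 3 largest rises and falls of a comparison. FDFT1, NSDHL, PMVK, ACACB, MYLIP, SC5D, LSS, INSIG2, SREBF2, SCAP, SQLE, CYP51A1, HSD17B7, FADS1 and FADS2 were named outside that rule, as were the other-list genes, after their values were seen. Fold changes have 2 decimals and other values 3 digits.

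The data are of RNA from 1 cell line. Sterol or fatty acid levels, protein and SREBP processing were not measured in these files, and whether replicate libraries came from separate cultures is not given. Rounding of the estimated counts and use of strand in counting are not given in the sources used here. The authors' paper names a later GENCODE release than the one read here. DMSO libraries are shared within an experiment and day. Low counts limit ABCA1, and shared exons limit the levels of some members. The doses of the inhibitors differ, so drug classes are compared at these doses alone.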

Additional observations from a re-analysis of the deposited data

Results flagged for a closer look

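The olaparib effect of 25 members at 1 µM and of 34 at 5 µM differed between day 5 and day 1, tested as an interaction against separate DMSO libraries of each day. Over all genes, 15.6% had a more positive and 14.2% a more negative effect at day 5 at 1 µM, and 27.2% and 27.7% at 5 µM. The 2 members at 1.5-fold or more at 1 µM and the 12 at 5 µM stand beside 5.64% and 22.7% of all genes. Those at 1.5-fold or more are given here as the log2 effect at day 5 minus that at day 1. At 1 µM they were ELOVL5 (0.87) and ELOVL6 (-0.98). At 5 µM the positive differences were those of ELOVL5 (1.11), TM7SF2 (1.04) and ACACA (0.63). The negative differences were those of ELOVL6 (-1.06), FADS1 (-0.95), FDPS (-0.89), TMEM97 (-0.83), ACACB (-0.79), HSD17B7 (-0.69), INSIG1 (-0.68), PMVK (-0.63) and ACAT2 (-0.61). ELOVL6 read 5.40, 4.86 and 4.39 CPM in DMSO and 4.48, 4.05 and 4.15 at 5 µM on day 1, against 4.19, 5.06 and 5.35 and 1.88, 2.13 and 2.03 on day 5. ACACB, the carboxylase isoform tied to the control of fatty acid oxidation, read 15.1, 15.8 and 15 CPM in DMSO and 19.8, 21.4 and 18.2 at 5 µM on day 1, against 16, 14 and 15.2 and 11.6, 11.6 and 10.6 on day 5. PMVK, phosphomevalonate kinase, read 31.3, 28.2 and 28.2 and 32.8, 34.1 and 33.1 on day 1, against 27.9, 29.4 and 31.7 and 21.6, 22.6 and 21.5 on day 5. Both of these were higher with the drug at day 1 and lower at day 5.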

How the results depend on the processing

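Of 11351 gene results under alternatives, 10878 kept their call, 347 became weaker, 123 stronger and 3 reversed. Direction was compared only for the 539 of 800 results called in the main fit. Results not called there were checked for their call alone. All 3 reversals came with total-count scaling: LSS with 5 µM olaparib against DMSO at day 5 (0.072 became -0.011, adjusted p 0.759), ELOVL7 in the same comparison (0.052 became -0.031, adjusted p 0.19), and FADS2 in the 5 µM effect, day 5 minus day 1 (0.074 became -0.057, adjusted p 0.0468). Of 539 called results, 536 never reversed. Weaker and stronger results numbered 262 and 44 with a library left out, 33 and 38 with total-count scaling, 9 and 16 with DESeq2, 20 and 7 with no filter, 5 and 6 with the stricter filter, 7 and 8 with the groups compared alone, 7 and 3 with the replicate block, and 4 and 1 with RLE scaling.

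One count of called members moved by more than 1.5-fold, that of talazoparib against olaparib, 7 in the fit and 13 by DESeq2 (2 higher, 11 lower). With each library left out in turn the counts ranged as follows: abiraterone 37 to 39, enzalutamide 37 to 38, olaparib 18 to 22, talazoparib 19 to 21, abiraterone plus olaparib 38 to 40, enzalutamide plus talazoparib 38 to 39, all against DMSO. Enzalutamide against abiraterone gave 18 to 21, talazoparib against olaparib 2 to 10, the combinations against their ARPi 20 to 26 and 21 to 26, and the departures from additivity 13 to 17 and 10 to 14. In the time course, 1 and 5 µM at day 1 gave 11 to 14 and 30 to 34, at day 5 26 to 30 and 32 to 36, the doses against each other 27 to 30, the day differences 22 to 25 and 31 to 34, and DMSO over time 28 to 30.

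With group means removed, same-letter replicates of different groups correlated between -0.0686 and 0.0636 in the panel. Same-number replicates correlated between -0.133 and 0.116 in the time course, where 2 of 45 pairs were over 0.1. No strong pairing was seen, but such values cannot show whether these libraries were treated or prepared together. A replicate block gave 20 called members for olaparib in the panel in place of 21, 6 for talazoparib against olaparib in place of 7, 14 for the enzalutamide by talazoparib departure in place of 15, 31 for 1 µM olaparib at day 5 in place of 30, and 34 for 5 µM olaparib at day 5 in place of 36.

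Total-count scaling moved the split of higher and lower members in the day-5 comparison of 5 µM olaparib with DMSO from 12 and 24 to 8 and 26.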
